A study of Homo sapiens with 4 samples.

Results

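SMRC1 sites that carried an NFIC peak and no SATB1 peak were examined in HepG2, a widely used cell line grown from a human liver tumour. They were taken from the SMRC1 peak list as the peaks sharing at least 1 bp with a peak of the NFIC list and none with a peak of the SATB1 list. An NFIC peak was met by 23.7% of all SMRC1 peaks and a SATB1 peak by 8.61%. The rule left 6084 of 29441 SMRC1 peaks (20.7%), out of 46380 peaks in the 3 lists together. The other SMRC1 peaks comprised 889 with both NFIC and SATB1 (3.02%), 1647 with SATB1 and no NFIC (5.59%), and 20821 with neither (70.7%). The sites were thus chosen by the peak calls of all 3 libraries, so their counts and strengths are given as a description, with no test.

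Chromatin was fixed in 1% formaldehyde for 10 min and pulled down with an antibody against SMRC1, SATB1 or NFIC. The design text calls these antibodies Pbodies and sets them against published data from commercial ones, which were not used here. All 3 libraries came from the same line, with no treatment named other than the fixation. Each antibody had 1 library, with 13643 NFIC peaks and 3296 SATB1 peaks beside the SMRC1 list, so no spread between experiments is known. An input library is named in the labels and was not analysed here. Intervals are exact 95% intervals over peaks (Clopper-Pearson for shares, order statistics for medians) and cover counting error only, since neighbouring peaks of 1 library are not independent.

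SMRC1 is the protein entry name of the product of SMARCC1, also called BAF155, a scaffold subunit of the SWI/SNF complexes, which use ATP to slide or evict nucleosomes. NFIC belongs to the nuclear factor I family, whose dimers recognise a palindromic DNA sequence and whose sites are common in promoters and enhancers of liver genes such as albumin. SATB1 binds AT-rich DNA, anchors chromatin loops and is best known from developing T cells. A remodeller subunit does not read a DNA motif of its own in the way a factor such as NFIC does, and in ChIP it is recovered over open regulatory regions as well as at the site of a recruiting factor. The genome sequence and gene models of the build used for the peaks, hg19, were not used here, so no site is assigned to a gene and no base sequence is shown.

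The SMRC1 signal at these sites was stronger and broader than over most of the list. Their median fold, the authors' ratio of the summit to its local background, was 5.05 (4.97 to 5.13), compared with 3.85 (3.83 to 3.89) at the SMRC1 peaks with neither factor. Their median width was 783 bp (773 to 793), compared with 544 bp (540 to 548). The median summit held 61 reads (60 to 63), compared with 40 (39 to 40). The quartiles of the fold were 3.81 and 6.84 at the sites with NFIC and no SATB1, and 3.15 and 4.83 at those with neither, so the distributions overlapped. SMRC1 peaks with SATB1 and no NFIC had nearly the same median reads, 60.5 (59 to 62), over a higher local background of 10.6 control fragments, and their median fold was 4.10 (4.02 to 4.18). The background at the sites with NFIC and no SATB1 was 9 control fragments. Their width was close to that of the peaks with SATB1 and no NFIC, 778 bp (750 to 798). Peaks with both NFIC and SATB1 were wider, at 1028 bp (994 to 1077).

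**Figure D1:**
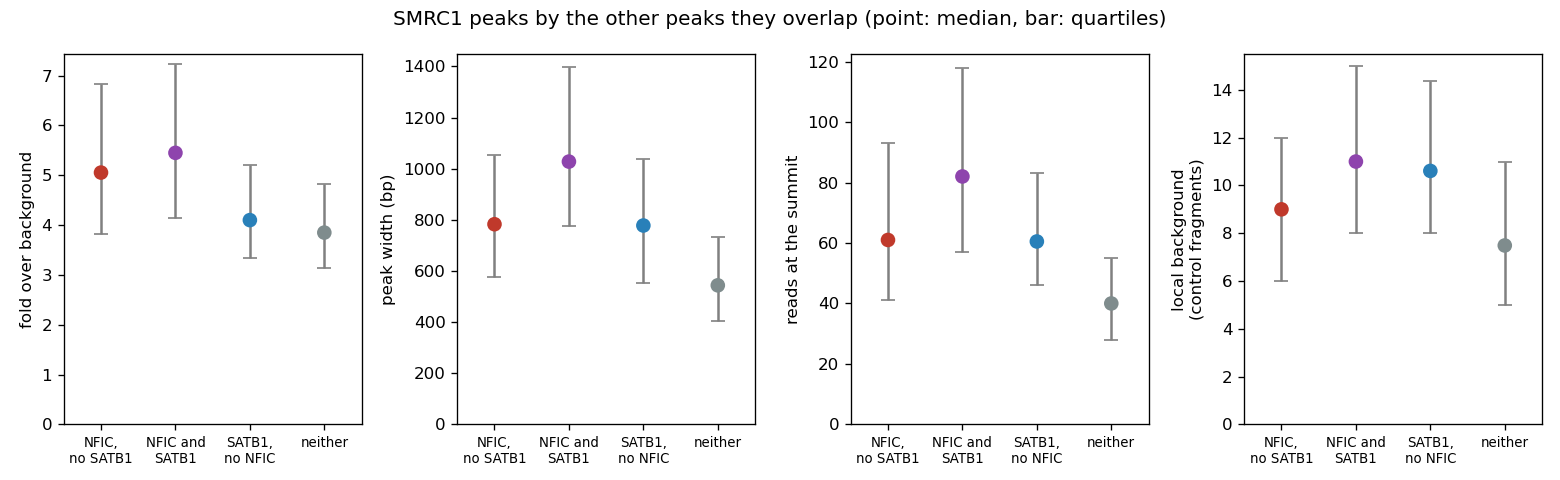
SMRC1 peaks split by the other peaks they overlap, with the authors' fold, the peak width in bp, the reads at the summit and the local background in control fragments on the 4 axes. Points are medians and bars are quartiles over peaks. Sites with NFIC and no SATB1 have a median fold of 5.05 and those with neither factor 3.85.

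The share of SMRC1 peaks that belonged to this class rose with rank in the SMRC1 list. In the lowest decile by −log10 q it was 8.32%, in the fifth 14.7%, and in the highest 54.2%, beside 20.7% of the whole list. In the highest decile 1595 peaks carried NFIC and no SATB1, 352 carried both and 788 carried neither. Of the sites with NFIC and no SATB1, 4113 (67.6%) had an SMRC1 −log10 q of at least 10, a level that 43.7% of all SMRC1 peaks reached. The class made up 600 of the 1000 highest-ranked SMRC1 peaks (60%) but 44 of the highest 100 (44%, 34.1 to 54.3), where 15 peaks had SATB1 alone and 19 had both. All of these values come from the lists that defined the class, and nothing is read from them beyond the description.

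Set against SMRC1 peaks of similar rank with neither factor, the sites differed in width more regularly than in fold. Fold and −log10 q rest on the same summit and background, so the deciles hold the fold close but not the width. Within each of the 10 deciles of −log10 q their median width exceeded that of the peaks with neither factor, by 13.5 to 123 bp. Their median fold was the higher one in 4 of the 10 deciles, with differences between -0.16 and 0.53. Median reads were higher in 8 deciles, by at most 7 reads. The largest width difference was in the highest decile, where −log10 q ran from 30.4 to 304. Ranks were least matched there, with median reads of 116 at the sites and 109 at the peaks with neither factor. A wider peak has more room to meet a peak of another list, and the part of this in the width difference was not tested. Greater width was not particular to the sites. SMRC1 peaks with SATB1 and no NFIC had the larger median width in all deciles but the highest. In the seventh decile it was 791 bp against 697 bp at the sites, and in the highest 1078 bp against 1104 bp. Their median fold was below that of the sites in every decile, over a higher background.

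**Figure D2:**
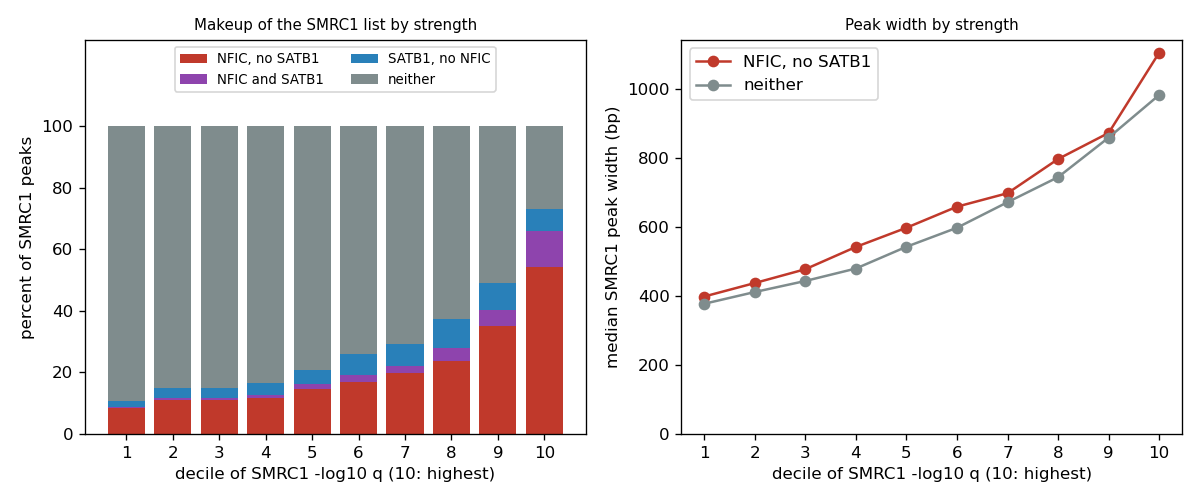
Left, percent of SMRC1 peaks in each overlap class (vertical axis) by decile of the SMRC1 −log10 q (horizontal axis). Right, median SMRC1 peak width in bp by the same deciles. The class with NFIC and no SATB1 grows from 8.32% in the lowest decile to 54.2% in the highest, and its median width lies above that of the peaks with neither factor in all 10 deciles.

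On the NFIC side, the sites held 6145 NFIC peaks, 45.0% of the NFIC list (51.9% of which met an SMRC1 peak of any class), which left 929 NFIC peaks at other SMRC1 sites (6.81%) and 6569 away from SMRC1 (48.1%). Nearly all sites were simple pairs. A single NFIC peak lay at 5972 of them (98.2%), 2 NFIC peaks lay at 110 and 3 lay at 2, while 53 NFIC peaks bridged 2 SMRC1 peaks of the class. The NFIC peaks at the sites had a median fold of 4.23 (4.17 to 4.29) with 39 reads at the summit, and those away from SMRC1 had a fold of 5.6 (5.49 to 5.66) with 25 reads. The recovered background was 8.62 control fragments at the sites and 3.39 away from SMRC1. Within deciles of the NFIC −log10 q, reads, background and fold are tied, since reads and background were solved from the fold and −log10 p. In all 10 deciles of the NFIC −log10 q the NFIC peaks at the sites had more reads (by 11 to 20), a higher background (by 3.70 to 5.61 control fragments) and a lower fold than those away from SMRC1. These differences within deciles are thus not separate observations. What the higher background in the control reflects was not tested.

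The SMRC1 and NFIC peaks were mostly nested. The SMRC1 peak was the wider of the pair at 4776 sites (78.5%, 77.4 to 79.5), with a median width ratio of 1.52 to the strongest NFIC peak it met. At 3513 sites (57.7%, 56.5 to 59.0) the whole NFIC peak lay inside the SMRC1 peak, and at 493 (8.10%) the reverse held. The median overlap was 445 bp (440 to 451). As a share of each peak's own width, the overlap had a median of 100% of the NFIC peak and of 60.1% of the SMRC1 peak. The NFIC summit fell inside the SMRC1 peak at 5652 sites (92.9%, 92.2 to 93.5), and each summit lay inside the other peak at 5127 (84.3%). At 205 sites (3.37%) neither did.

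The summits themselves lay a median of 82 bp apart (80 to 86), with quartiles of 35 and 174 bp. They fell within 25 bp of each other at 1188 sites (19.5%), within 100 bp at 3456 (56.8%) and within 200 bp at 4839 (79.5%), and coincided to the base at 29. The NFIC summit was at the lower coordinate in 3058 cases and at the higher one in 2997, so neither side prevailed, although the strand of any gene or motif at the site was not known here. The NFIC summit was nearer to the SMRC1 summit than to the middle of the SMRC1 peak, from which it lay 104 bp away in the median. A minority of 279 sites (4.59%, 4.07 to 5.14) had summits over 500 bp apart.

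SMRC1 fold was lower the farther the summits lay apart up to 400 bp, and the NFIC fold changed little. Where the summits were within 25 bp, the median SMRC1 fold was 5.56 (5.39 to 5.72). It was 5.36 (5.20 to 5.49) between 50 and 100 bp, 4.86 (4.70 to 4.98) between 100 and 200 bp and 4.24 (4.14 to 4.38) between 200 and 400 bp. The median NFIC fold over the same distances stayed between 4.17 and 4.30, and the background at the SMRC1 summit was 9 control fragments in each of them. At the 425 sites with summits over 400 bp apart the SMRC1 fold was 4.50, the NFIC fold 4.72 and the SMRC1 width 1091 bp.

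**Figure D3:**
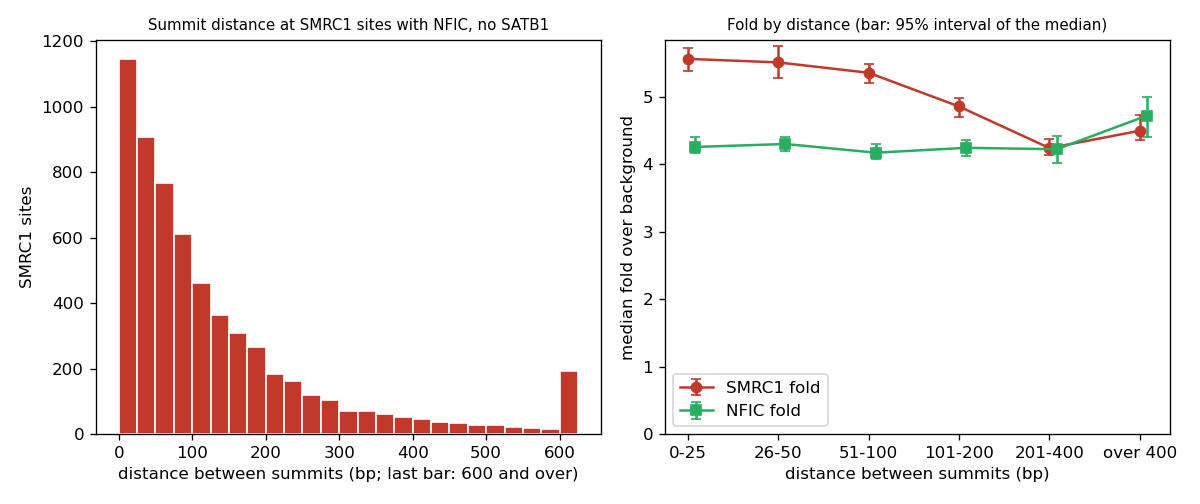
Left, number of sites (vertical axis) by the distance in bp between the SMRC1 summit and that of the strongest overlapping NFIC peak. Right, median fold of both proteins by that distance, with 95% intervals of the median. The SMRC1 fold is 5.56 at distances up to 25 bp and 4.24 between 200 and 400 bp, while the NFIC fold stays between 4.17 and 4.30 up to 400 bp.

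The same relation appeared when the sites were ordered by strength. From the lowest to the highest quartile of SMRC1 fold the median summit distance went from 115 bp (106 to 126) through 94 and 76 to 61 bp (55 to 65). By NFIC fold it was 89, 77, 75 and 95 bp, with no steady course. Quartiles of the local background gave 80, 83, 84 and 83 bp. SMRC1 reads also moved with distance, from a median of 68 within 25 bp to 50 between 200 and 400 bp. By quartile of SMRC1 reads the distance was 95, 97, 80 and 66 bp, and by quartile of NFIC reads 84, 81, 80 and 86 bp. When SMRC1 and NFIC reads were each cut into terciles, the distance was 66 bp at sites in the highest tercile of both. It was 131 bp (111 to 150) where NFIC reads were in the highest tercile and SMRC1 reads in the lowest, and 87 bp (81 to 96) where both were in the lowest. By NFIC width the median distance was 73, 71, 86 and 120 bp (107 to 131) from the narrowest to the widest quartile. By SMRC1 width it went from 83 bp in the narrowest to 93 bp in the widest, but the share of sites over 500 bp apart went from 1.97% to 11.5%. A narrow peak leaves little room for summits that far apart, and the part of this was not tested.

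The folds of SMRC1 and NFIC were nearly unrelated from site to site. Across the 6084 sites Spearman's rho between the SMRC1 and NFIC folds was 0.041, and Pearson's r of the log2 folds was 0.023. At the 1188 sites with summits within 25 bp, rho was 0.145. Reads at the summits were related more closely, with rho of 0.440 across 6082 sites. The recovered backgrounds at the paired summits had rho of 0.912, and their part in the relation between reads was not tested. Of those 1188 sites, 1123 (94.5%) had backgrounds within 1 control fragment of each other in the 2 lists. The backgrounds were equal to within 0.01 at 395 of them (33.2%), and at 15 of the 29 with coinciding summits. These coefficients are across sites within a pair of libraries and describe them only.

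The balance between the proteins varied widely. The median log2 ratio of NFIC to SMRC1 fold was -0.26 (-0.28 to -0.23), and the NFIC fold was the higher one at 2320 sites (38.1%). It was at least 2 times the SMRC1 fold at 609 sites (10.0%), and the SMRC1 fold was at least 2 times the NFIC fold at 960 (15.8%). A site in the upper part of the SMRC1 list could lie anywhere in the NFIC list. By −log10 q, 2308 sites were above the median rank of both lists, 2098 were above it for SMRC1 only, 919 for NFIC only and 759 for neither. At 203 sites (3.34%) both peaks were in the highest decile of their lists, while 1595 (26.2%) were in that decile of the SMRC1 list and 780 (12.8%) in that of the NFIC list, against 10.0% of each whole list by construction. An NFIC −log10 q of at least 10 was found at 3002 sites (49.3%), close to the 46.3% of all NFIC peaks.

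**Figure D4:**
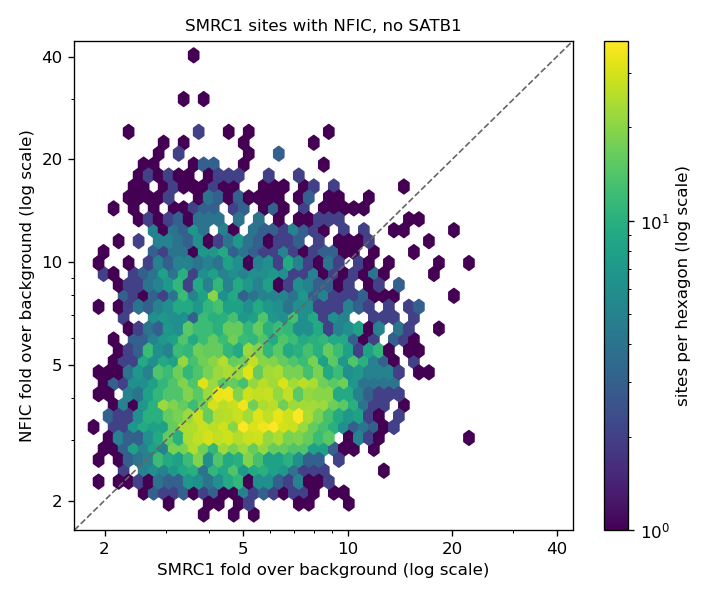
NFIC fold (vertical axis) against SMRC1 fold (horizontal axis) at the 6084 sites, both on log scales, with colour giving the number of sites per hexagon and the dashed line marking equal folds. The cloud has little slope (rho of 0.041), and 2320 sites lie above the line.

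The highest combined rank was held by a site on chromosome 2 at 63419103 to 63421503 (hg19, band p15). This 2401 bp SMRC1 peak had a fold of 11.6 with 297 reads, and the NFIC peak inside it a fold of 11.9 with 226 reads, the summits 245 bp apart. On chromosome 9 at 111647610 to 111649055 (q31.3) the folds were 15.3 for SMRC1 and 13.1 for NFIC, over backgrounds of 10.3 and 12 control fragments. On chromosome 6 at 113963509 to 113964931 (q21) the SMRC1 fold of 18.2 exceeded the NFIC fold of 10.1, with summits 74 bp apart. The first 3 sites were strong in both libraries and all held a single NFIC peak.

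Either protein could have the higher fold among the first 10. On chromosome 1 at 156341270 to 156342217 (q22) the NFIC fold was 14.8 and the SMRC1 fold 10.9. On chromosome 20 at 48782121 to 48783145 (q13.13) the NFIC fold was 16.8, from 276 reads, and the SMRC1 fold 7.65, from 186 reads. On chromosome 16 at 83986182 to 83987310 (q23.3) the summits were 4 bp apart, with folds of 12.9 for NFIC and 9.33 for SMRC1. The remaining 4 lay on chromosome 2 at 47260504 to 47263350 (p21) and at 214103266 to 214104410 (q34), on chromosome 6 at 11392317 to 11394455 (p24.2), and on chromosome 14 at 23445503 to 23447807 (q11.2). The last of these had summits 993 bp apart, the longest distance among the 10. Their SMRC1 folds were between 5.92 and 10.5 and their NFIC folds between 9.29 and 10.4.

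The most uneven sites ranked high in 1 list and below the median rank of the other. On chromosome 7 at 4814776 to 4815467 (p22.1) the NFIC peak, ranked 2 in its list, had a fold of 40.3, and the SMRC1 peak a fold of 3.56 from 40 reads. On chromosome 6 at 84937339 to 84937689 (q14.3) the SMRC1 peak, 351 bp wide with a fold of 2.35, lay wholly within an NFIC peak of fold 23.3. On chromosome 16 at 2570196 to 2570768 (p13.3) the folds were 29.7 for NFIC and 3.39 for SMRC1. In the other direction, the SMRC1 peak ranked 3, on chromosome 3 at 50358490 to 50359702 (p21.31), had a fold of 22.3 from 344 reads and met an NFIC peak of fold 3.07 from 33 reads, 398 bp from its summit. On chromosome 15 at 40390489 to 40391603 (q15.1) the SMRC1 fold was 12.9 and the NFIC fold 2.48. On chromosome 16 at 54214519 to 54215504 (q12.2) they were 9.92 and 1.99.

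Sites with several NFIC peaks were broad. The widest SMRC1 peak of the class, 4915 bp on chromosome 20 at 45985084 to 45989998 (q13.12), held 3 NFIC peaks, the strongest with a fold of 5.79 at 1567 bp from the SMRC1 summit. A 3375 bp peak on chromosome 2 at 75748237 to 75751611 (p12) also held 3, with an SMRC1 fold of 6.44 and a highest-ranked NFIC peak of fold 3.64. On chromosome 17 at 34327599 to 34329201 (q12) an SMRC1 peak of fold 14.5 met 2 NFIC peaks. Of the 112 sites with more than 1 NFIC peak, 92 were in the widest quartile of SMRC1 peaks, above 1054 bp. A wider peak has more room for several NFIC peaks, and the part of this was not tested.

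At the edge of the class the SMRC1 peaks had a lower median fold than the class as a whole. The smallest overlap, 5 bp, was on chromosome 3 at 57541165 to 57541609 (p14.3), with folds of 2.32 for SMRC1 and 3.05 for NFIC. The next, of 7 and 9 bp, were on chromosome 16 at 53795650 to 53796326 (q12.2), with folds of 5.26 for SMRC1 and 5.48 for NFIC, and on chromosome 2 at 169036933 to 169038177 (q24.3), with folds of 4.16 and 3.70. Overlaps of at most 50 bp occurred at 36 sites, with a median SMRC1 fold of 3.76 and a median NFIC fold of 4.07. Just outside, 30 SMRC1 peaks with neither factor had an NFIC peak within 50 bp, with median folds of 2.97 and 4.19. In the closest 2 cases, on chromosome 6 at 99872843 to 99873188 (q16.2) and on chromosome 19 at 46272026 to 46272606 (q13.32), the peaks abutted without a shared base. The 36 sites were 0.592% of the class.

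Few sites had a SATB1 peak close by, which the rule partly set. It left out 889 of the 6973 SMRC1 peaks with NFIC because a SATB1 peak overlapped them. Among SMRC1 peaks without NFIC, 1647 met a SATB1 peak and 20821 did not, and only the latter are compared here. Of the 6145 NFIC peaks at the sites, 6 overlapped a SATB1 peak themselves. The rule largely set this count too, since most of these NFIC peaks lay wholly inside an SMRC1 peak without SATB1. The same share over all NFIC peaks was not computed here, so nothing is read from the count. Within 1 kb of the site's edge a SATB1 peak was listed at 51 sites (0.838%, 0.625 to 1.1), and within 10 kb at 377 (6.20%, 5.6 to 6.83). The values for SMRC1 peaks with neither factor were 1.5% (1.34 to 1.67) and 7.21% (6.87 to 7.57). The nearest was on chromosome 1 at 154377753 to 154378376 (q21.3), where the SATB1 peak abutted the SMRC1 peak. At the next 2, on chromosome 12 at 53645022 to 53645904 (q13.13) and on chromosome 16 at 2264792 to 2265558 (p13.3), the gaps were 34 and 65 bp. The absence of a SATB1 peak means only that none was called in a list of 3296 peaks, and weaker SATB1 signal at these sites was not detectable from the lists.

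The 889 SMRC1 sites with NFIC and SATB1 together share the SMRC1 and NFIC peaks with the sites described here and add a SATB1 peak. Their SMRC1 peaks were wider, at 1028 bp (994 to 1077), had a higher fold, at 5.45 (5.28 to 5.66), more reads, at 82 (79 to 86), and a higher background, at 11 control fragments (10.3 to 11.2). Their NFIC peaks had a slightly lower fold, 4.02 (3.91 to 4.19) against 4.26 (4.21 to 4.31) for the strongest partner at the sites without SATB1. These NFIC peaks had more reads, 46 (45 to 48) against 39 (39 to 40). Their background was higher, 10.8 control fragments (10 to 11) against 8.62 (8.32 to 9), and their width was 580 bp against 513 bp. The SMRC1 and NFIC summits of the 889 sites were farther apart, at 108 bp (95 to 121). Within the 5 deciles of SMRC1 −log10 q that held at least 50 of them, the direction of the SMRC1 fold turned. There the sites without SATB1 had the higher median fold in 5 of 5 deciles, by 0.24 to 0.40. They remained narrower by 106.5 to 260.5 bp, with a background lower by 1.17 to 2.18 control fragments. At a similar −log10 q a lower background goes with a higher fold, so the differences in fold and background are not separate observations. The summits of the sites without SATB1 were the closer ones in 4 of the 5 deciles. All of these measures come from the libraries that set the classes, and no test was made.

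Along the chromosomes the sites broadly followed the SMRC1 list. On the autosomes and chromosome X their share of the SMRC1 peaks lay between 17.4% on chromosome 13 (14.5 to 20.6) and 23.4% on chromosome 2 (21.8 to 25.1). The intervals of these chromosomes did not overlap. Chromosome Y held 1 site among 21 SMRC1 peaks. Density was highest on chromosome 17, with 4.26 sites per Mb, and lowest among these on chromosome X, with 0.760. By chromosome band, the sites were densest in the lightly stained bands, at 2.93 per Mb, followed by the unstained ones at 2.7, and least dense in the darkest, at 0.887. The ratio of unstained to darkest was 3.04, beside 3.29 for the SMRC1 peaks with neither factor.

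The local background at the sites varied more between chromosomes than their share did. It was 14 control fragments on chromosome 20, 12 on chromosome 17, 11.9 on chromosome 2, 11.4 on chromosome 16 and 11 on chromosome 6, and at most 9.05 on each of the others. The median SMRC1 summit held 86 reads on chromosome 20 and 41 on chromosome X, where the background was 4. The median folds were 4.68 for SMRC1 and 3.87 for NFIC on chromosome 20 and 6.24 and 5.32 on chromosome X. SMRC1 fold did not follow the background on every chromosome. It was 5.28 on chromosome 6, where the background was 11, 4.82 on chromosome 1, where it was 8, and 4.58 on chromosome 19, where it was 9. Copy number was not measured here. A planned setting left out chromosomes 2, 6, 14, 16, 17 and 20, of which chromosome 14 had a background of only 9.05. The median SMRC1 fold of the remaining sites was 5.19 and the NFIC fold 4.39.

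Many of the sites lay near other SMRC1 peaks, about as often as the rest of the list. Another site of the class had its summit within 10 kb of 1119 of them (18.4%, 17.4 to 19.4). Another SMRC1 peak of any class had its summit within 10 kb of 3206 sites (52.7%, 51.4 to 54.0), compared with 50.9% of all SMRC1 peaks. The nearest other SMRC1 peak was itself a site with NFIC and no SATB1 in 23.8% of cases (22.8 to 24.9), against 20.2% (19.7 to 20.8) for the SMRC1 peaks with neither factor. The gap between these shares was widest at short range and included pairs of neighbours that met the same NFIC peak. With the neighbour within 2 kb it was 28.6% (25.7 to 31.7) against 15.7% (14.6 to 17). Leaving out the 102 of 891 sites whose neighbour met the same NFIC peak, a step added after seeing the data, gave 19.4% (16.7 to 22.3). With the neighbour over 50 kb away it was 18.7% (16.1 to 21.6) against 18.4% (17 to 19.8).

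Runs of such sites were short. A chain of sites with consecutive summits within 10 kb held 3 or more of them in 69 places, which took in 217 sites, and 4965 sites stood alone. The chain with the most sites, 5, spanned 20.0 kb on chromosome 12 at 101992832 to 102012788 (q23.2), where all 5 SMRC1 peaks met an NFIC peak and no SATB1 peak was listed. Its SMRC1 folds were 7.01, 9.65, 13.4, 3.64 and 4.18 in order of position, and the NFIC folds 2.91, 3.77, 3.97, 6.02 and 2.71. The strongest NFIC peak thus lay at the weakest SMRC1 peak of the chain. Chains of 4 were found in 8 places, among them chromosome 7 at 47611130 to 47622054 (p12.3), chromosome 6 at 138044009 to 138056439 (q23.3) and chromosome 12 at 9266409 to 9289189 (p13.31). Each of these 3 held 5 SMRC1 peaks, 4 NFIC peaks and 0 SATB1 peaks.

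**Figure D5:**
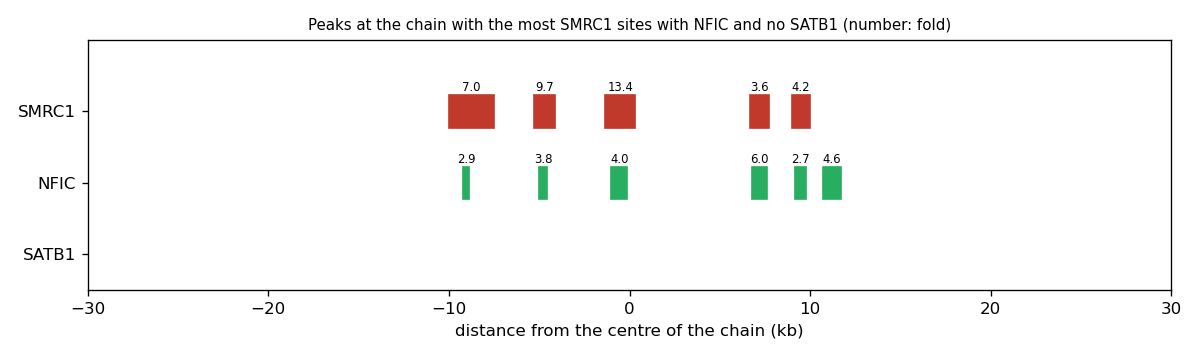
Peaks of the 3 lists at the chain with the most sites, drawn to scale against the distance in kb from its centre, with the authors' fold printed above each peak. All 5 SMRC1 peaks overlap an NFIC peak, with SMRC1 folds from 3.64 to 13.4, and the SATB1 row is empty.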

How the data were processed

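The members and measures were chosen with earlier results of these data known. Per the submitters' processing notes the authors used Bowtie 1.1.2, SAMtools, MACS2 2.1.1 and deepTools with hg19, and those notes as held here give neither settings nor the control library. The deposited lists hold 10 unnamed columns in narrowPeak order. The authors' values per peak are a score, a fold (the ratio of summit to local background), −log10 p and −log10 q, with a lowest −log10 q just above 1 in each list, and the summit offset. They were used to describe and rank peaks.

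From the fold and −log10 p, the reads at the summit and the local background in unscaled control fragments were recovered by solving the peak caller's 2 expressions. The ChIP depth relative to the control was 1.29 for SMRC1 and 1.01 for NFIC. Reads came out whole within 0.05 in 100% of solved peaks, but depth and solution were picked to bring reads nearest to whole numbers. Backgrounds were whole within 0.002 in 58.5% of SMRC1 and 52.7% of NFIC peaks, and 1 SMRC1 and 4 NFIC peaks had no solution. On simulated lists 500 of 500 planted overlaps and 100% of reads and backgrounds were recovered. The simulated reads used the same expressions and whole backgrounds, so they check the solving step and not whether the authors' settings fit it. Total depth per library is unknown.

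Where several NFIC peaks met a site, the one with the highest −log10 q gave distances and folds. Sites named were the 10 with the lowest sum of SMRC1 and NFIC ranks and the 3 at each extreme of overlap, gap to SATB1, NFIC peaks per site and fold ratio. Positions are 1-based. Bands came from circlize 0.4.16. Python 3.11.15, numpy 2.4.6, pandas 2.3.3 and scipy 1.17.1 were used. Starts of genes, motifs and gene lists, which had been planned, need hg19 annotation or sequence and were not analysed here.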

Additional observations from a re-analysis of the deposited data

How the results depend on the processing

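Of 37 values under other settings, 18 stayed within the interval of the reported value (for the number of sites, within 1.5 times) and 19 did not. Requiring an overlap of at least 50% of the shorter peak gave a median SMRC1 fold of 5.14, a summit distance of 78 bp, 96.3% of NFIC summits inside the SMRC1 peak and 17.3% of sites with another within 10 kb (18.4% as reported). Requiring the NFIC summit inside the SMRC1 peak gave a fold of 5.22, 75 bp and 16.4%. With a −log10 q of at least 10 in both lists, 2013 sites remained by construction, with folds of 6.22 for SMRC1 and 5.37 for NFIC, 71 bp between summits, 96.7% of NFIC summits inside and 7.50% with a neighbour within 10 kb. With SATB1 peaks ignored, the share with a neighbour was 20.8% over more sites. The share with a neighbour depends on the number of sites kept, and the part of this in its shifts was not tested. Without chromosomes 2, 6, 14, 16, 17 and 20, 4014 sites were left, with folds of 5.19 for SMRC1 and 4.39 for NFIC and 16.9% with a neighbour. A window of 50 kb in place of 10 kb gave 49.97%. Leaving out neighbours at the same NFIC peak, a setting chosen after seeing the data, took the share of neighbours within 2 kb that were sites of the class from 28.6% to 19.4%. The cause of the shifts in fold was not tested. The exclusion of sites within 1 kb of a SATB1 peak and the choice of the nearest NFIC summit moved none of the values tried. No paired analysis was possible because the result comes from no test and each antibody had 1 library. Settings on gene starts, motifs and gene lists were not run. With 1 library per antibody and unknown total depth, a missing NFIC or SATB1 peak cannot be told from a weak one.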
